A study of Homo sapiens with 6 samples.

Results

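CRK is a small adaptor protein of focal adhesions, the points at which a cell grips its matrix, and the genes described here are CRK together with 9 of its known partners (CRKL, BCAR1, NEDD9, PXN, DOCK1, RAPGEF1, PTK2, ABL1 and SRC). CRK was chosen by its higher level after RBM3 silencing in these same libraries. Its own values are thus given as a description and no test is made of them. The other 9 genes were picked for what their proteins do, though with earlier results of these data known. All 10 genes were found among the 63677 identifiers of the count table, and all 10 were among the 15099 genes that passed the filter on low counts. RNA came from T24, a human bladder cancer cell line of grade 3 in the labels, and was sequenced from 3 control and 3 siRBM3 libraries. Cells of both groups were transfected with Lipofectamine for 4.5 h at 25 nM siRNA and harvested the next day, control cells with a non-targeting siRNA and siRBM3 cells with a pair of siRNAs against RBM3. Per-library values are given in the order of the replicate labels, which run 1, 3, 5 for control and 3, 4, 5 for siRBM3 cells. The model is a single cell line with a brief knockdown by 1 pool of siRNAs, and nothing in the labels says that the libraries of a group came from separate cultures, so that the p-values measure the spread between these samples.

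When integrins bind the matrix, the kinases FAK (the product of PTK2) and SRC phosphorylate tyrosines on the scaffolds BCAR1, NEDD9 and paxillin (PXN). The SH2 domain of CRK or of its relative CRKL docks on these tyrosines, and their SH3 domain brings in the exchange factors DOCK1, which switches on Rac and with it membrane protrusion, and RAPGEF1, which switches on Rap1 and with it integrin adhesion. ABL1 binds CRK and CRKL too and phosphorylates both, which releases their partners. The pathway is known for its part in the spreading, migration and invasion of carcinoma cells.

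Library totals ranged from 23603992 to 45098612 counts, with medians of 26462306 in control and 25539750 in siRBM3 cells, and levels are given as CPM, the counts of a gene relative to the library total after scaling with the TMM factors of edgeR. RBM3 had 225, 367 and 300 CPM in the control libraries, against 54.1, 90.0 and 58.3 CPM in the siRBM3 libraries, so every library matched its label (log2 fold change -2.14, standard error 0.24). RBM3 had an adjusted p of 0.0822 in edgeR, above the threshold, and an exact permutation p of 0.1, the smallest that 3 against 3 libraries allow. The deepest library, siRBM3 replicate 3, also had the largest mitochondrial share, 9.40% of its counts against 1.63% to 4.15% in the other 5. Of 9 epithelial markers 7 had a mean of at least 1 CPM, with KRT7, KRT8, KRT18 and KRT19 abundant, whereas CDH1 had at most 26 counts and KRT5 at most 2. The summed level of these 9 genes was 5070 to 5880 CPM in control and 4220 to 4320 CPM in siRBM3 libraries, and its part in the differences given here was not tested. Most of the sum came from keratins. The means of GATA3 (10.7 CPM in control, 13.8 CPM in siRBM3 cells), EPCAM (5.47 and 6.46 CPM) and UPK2 (1.42 and 1.79 CPM) were higher in siRBM3 cells. Those of all other epithelial markers were lower. Of the blood cell markers HBB had 0 counts in every library, and the list together reached at most 0.654 CPM, the 6 fibroblast markers together had 11.3 to 15.3 CPM, and the 4 endothelial markers 27.9 to 40.8 CPM, most of it from CDH5.

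CRK (ENSG00000167193) lies on the minus strand of chromosome 17 of GRCh37 from 1323983 to 1366456, and CRKL (ENSG00000099942) on the plus strand of chromosome 22 from 21271695 to 21308035. No exon base of either gene overlaps another gene of the table. The promoters of these paralogs are shown because the genes encode closely related adaptors with different values in these libraries. Each runs from 250 bases before to 50 bases after the RefSeq start (GRCh38.p14), and each had 1 exact match in GRCh37, at chr17:1359477-1359776 on the minus strand for CRK, inside the span that GENCODE gives to the gene, and at chr22:21271445-21271744 on the plus strand for CRKL. Capitals mark matches on either strand to GGGCGG (known as the SP1 box), CCAAT (the NF-Y box) and TGACGT (the cyclic AMP response element), and no marked match overlaps another.
CRK: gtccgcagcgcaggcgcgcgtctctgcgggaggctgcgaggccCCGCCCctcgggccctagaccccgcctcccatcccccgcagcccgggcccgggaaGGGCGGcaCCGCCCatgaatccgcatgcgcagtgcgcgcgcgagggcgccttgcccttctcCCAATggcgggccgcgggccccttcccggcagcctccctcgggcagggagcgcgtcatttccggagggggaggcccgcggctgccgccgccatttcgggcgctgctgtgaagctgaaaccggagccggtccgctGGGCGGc
CRKL: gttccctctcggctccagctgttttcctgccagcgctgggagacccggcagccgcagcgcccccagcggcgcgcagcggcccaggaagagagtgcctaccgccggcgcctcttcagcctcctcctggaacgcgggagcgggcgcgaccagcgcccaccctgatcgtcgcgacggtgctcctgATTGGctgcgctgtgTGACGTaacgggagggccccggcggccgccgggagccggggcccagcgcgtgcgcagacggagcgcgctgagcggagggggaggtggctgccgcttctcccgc

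Both windows were rich in G and C, with 77.0% and 40 CG pairs for CRK and 74.7% and 39 CG pairs for CRKL, where the median over 35116 RefSeq promoters was 58.7% and 14 pairs. The CRK window held 4 matches to GGGCGG and 1 to CCAAT, and the CRKL window 0 matches to GGGCGG, 1 to CCAAT and 1 to TGACGT. Over all promoters of this length, 45.0% held GGGCGG, 34.6% CCAAT and 7.98% TGACGT. Neither window held the ETS word CGGAAG (in 19.5% of promoters), the AP-1 word TGANTCA (in 7.71%) or the TATA box word TATAAA (in 11.5%). Of the 8 members with a promoter in the table, 5 held GGGCGG (CRK, DOCK1, RAPGEF1, PXN and ABL1) and 3 held CCAAT (CRK, CRKL and ABL1). NEDD9 had the lowest share of G and C of the 8, 42.0%. It held 6 CG pairs, as did BCAR1 at 60.7% G and C.

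CRK had 103, 94.1 and 95 CPM in the control libraries, against 160, 145 and 160 CPM in the siRBM3 libraries. The control libraries lay close together at 97.3 ± 4.70 CPM (SD, n = 3), and all siRBM3 libraries lay above them at 155 ± 8.80 CPM (SD, n = 3). The difference was 0.67 on the log2 scale (standard error 0.09), a 1.59-fold higher level with a 95% interval of 1.38 to 1.84 from the edgeR fit, given as a description because this difference chose the gene. Leaving out single libraries gave 0.64 to 0.72. In these bulk samples a change in the mix of cells and a change in RNA per cell cannot be told apart.

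**Figure D1:**
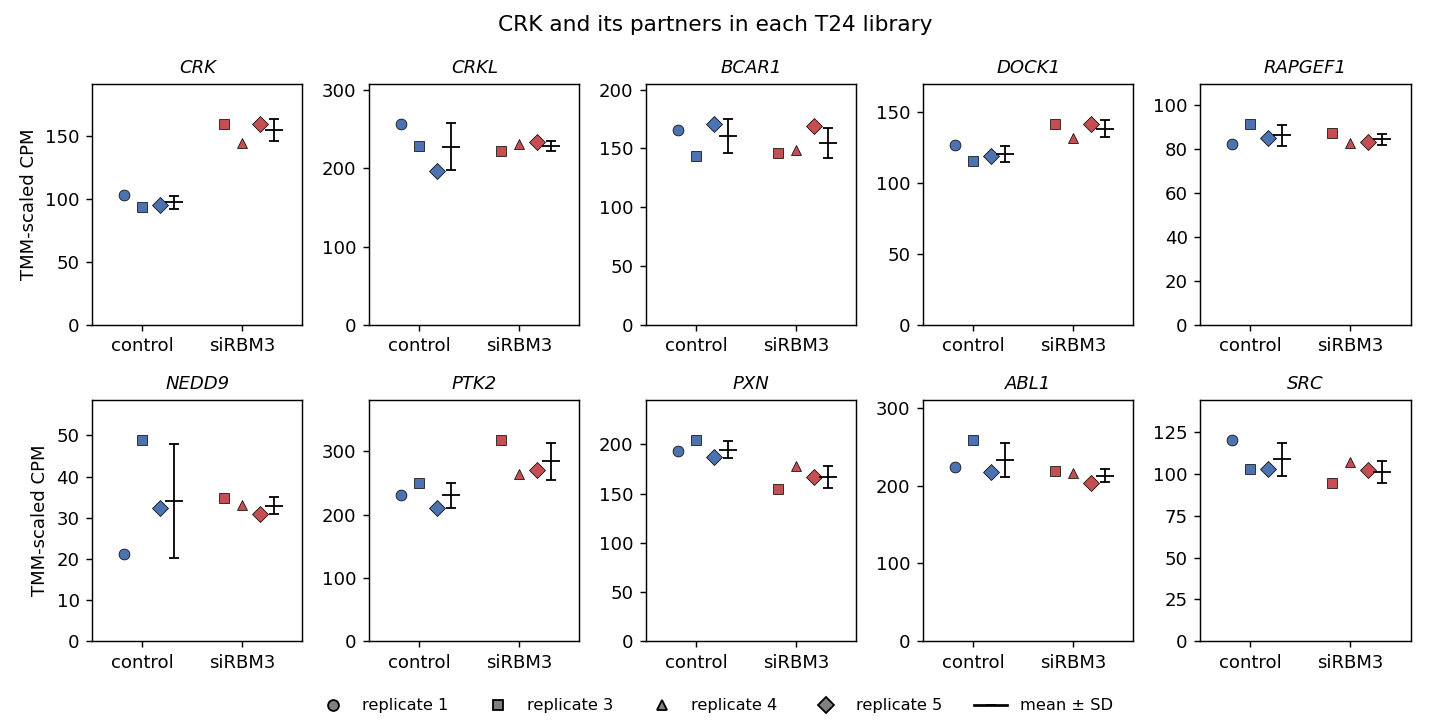
Level of CRK and its 9 partners in each library, as TMM-scaled CPM (vertical axis, from 0), with control libraries in blue, siRBM3 libraries in red, symbol shapes for the replicate number and the group mean ± SD (n = 3) in black. The groups are separate for CRK, DOCK1, PTK2 and PXN and overlap for the other 6 genes.

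CRKL, the adaptor with the same domain order as CRK, had 257, 229 and 197 CPM in the control libraries, against 222, 231 and 234 CPM in the siRBM3 libraries. The siRBM3 values all lay inside the control range. Its log2 fold change was 0.01 (95% interval -0.24 to 0.26, adjusted p = 0.979, edgeR), with a negative sign under scaling by library size only. Per kilobase of exon, CRK made up 34.5%, 35.1% and 38.8% of the summed CRK and CRKL level in the control libraries, against 48.7%, 45.1% and 47.3% in the siRBM3 libraries. The share was thus higher in every siRBM3 library than in any control library, a description that carries the choice of CRK with it. The sum itself was 73.3, 66.0 and 60.2 CPM per kb in control and 80.9, 78.8 and 83.1 CPM per kb in siRBM3 libraries.

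The genes around CRK on chromosome 17 were read for comparison. The 4 protein-coding neighbours within 100 kb are YWHAE, MYO1C, INPP5K and PITPNA. PITPNA, a phosphatidylinositol transfer protein, was at 129 ± 6.94 CPM in control and 143 ± 1.39 CPM in siRBM3 cells (SD, n = 3), with separate groups and a log2 fold change of 0.15 (adjusted p = 0.508, edgeR). YWHAE, an abundant phosphoserine-binding adaptor, had a log2 fold change of -0.21 (adjusted p = 0.472), and MYO1C and INPP5K had -0.06 and 0.07. None of the 4 passed the edgeR test.

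The 5 tested genes whose pattern over the 6 libraries was most like that of CRK, by the root mean square difference of log2 CPM centred on each gene's mean, were PPP2R1B, SEL1L, ITPRID2, SLK and G3BP2. PPP2R1B, a scaffold subunit of a protein phosphatase, was nearest at 0.04, and G3BP2, a protein of stress granules, was the fifth at 0.05. PPP2R1B had a mean of 41.1 CPM in control and 62.8 CPM in siRBM3 cells. SEL1L, an adaptor of protein degradation at the endoplasmic reticulum, had 82.6 and 133 CPM, and SLK, a kinase of the cytoskeleton, 110 and 173 CPM. These 5 genes were found by the measure alone, so their higher level in siRBM3 cells follows from the choice of CRK and is no separate result. They lie on 5 chromosomes other than chromosome 17.

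BCAR1, the Cas scaffold whose phosphorylated tyrosines are the classical docking place of CRK, had 166, 144 and 171 CPM in the control libraries, against 146, 149 and 169 CPM in the siRBM3 libraries. Its groups overlapped throughout, at 160 ± 14.3 and 155 ± 12.8 CPM (SD, n = 3). The log2 fold change was -0.05 (95% interval -0.29 to 0.19, adjusted p = 0.866, edgeR). The gene (ENSG00000050820) lies on the minus strand of chromosome 16 from 75262079 to 75301951.

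NEDD9, the second Cas scaffold and the least abundant gene of the group, had 21.1, 48.8 and 32.4 CPM in the control libraries. In the siRBM3 libraries it had 34.8, 33.2 and 30.9 CPM. The siRBM3 libraries all lay between control replicates 1 and 3, which were the lowest and the highest, and the fitted difference of -0.05 had an interval from -0.65 to 0.56 (adjusted p = 0.957, edgeR). Its sign rested on single libraries, since the value was 0.30 without control replicate 3 and -0.30 without control replicate 1. NEDD9 (ENSG00000111859) is on the minus strand of chromosome 6 from 11183531 to 11382581. The remaining Cas genes were hardly present. EFS had 0 counts in all 6 libraries, which allows up to 3 counts or 0.073 to 0.121 CPM per library by counting error alone, and CASS4 had 1 to 5 counts.

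PXN, the scaffold of adhesions that recruits CRK, FAK and many others, had 193, 204 and 187 CPM in the control libraries, against 155, 178 and 167 CPM in the siRBM3 libraries. The siRBM3 values all lay under the lowest control value, with means of 167 ± 11.4 and 195 ± 8.58 CPM (SD, n = 3). A difference of -0.23 on the log2 scale (95% interval -0.44 to -0.02) had an unadjusted p of 0.037 and an adjusted p of 0.344 in edgeR, so PXN did not pass the test, and without siRBM3 replicate 3 the value was -0.18. Of the exon bases of PXN (ENSG00000089159, chromosome 12, minus strand, 120648242 to 120703574), 23.7% overlap PXN-AS1 on the opposite strand. PXN-AS1 itself had 3.59 ± 0.52 CPM in control and 3.27 ± 0.54 CPM in siRBM3 cells (SD, n = 3), and the library kit kept the strand, while the strand setting of the counting is not stated in the sources used.

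Of the 5 genes fixed as Cas relatives and NSP proteins, which bind the Cas scaffolds, 2 were tested. BCAR3, the NSP protein that joins BCAR1, had 187 CPM in control and 144 CPM in siRBM3 cells with separate groups (log2 fold change -0.38, unadjusted p = 0.00565, adjusted p = 0.197, edgeR). Of all genes tested, 13.1% had an unadjusted p under 0.05 in edgeR, and 9.93% lay wholly below the control libraries. SH2D3A had 11.8 and 10.1 CPM with overlapping groups. Among the relatives of paxillin, TGFB1I1 (Hic-5), at 139 and 147 CPM, had a log2 fold change of 0.08, and LPXN (leupaxin), at 42.4 and 33 CPM, had -0.36 (unadjusted p = 0.0254, adjusted p = 0.306).

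DOCK1, the exchange factor through which CRK reaches Rac, had 127, 116 and 119 CPM in the control libraries, against 142, 132 and 142 CPM in the siRBM3 libraries. All siRBM3 libraries lay above all control libraries, by a small step from 121 ± 5.30 to 139 ± 5.96 CPM (SD, n = 3). With a log2 fold change of 0.20 (95% interval 0.002 to 0.399), an unadjusted p of 0.0486 and an adjusted p of 0.378 in edgeR, the gene did not pass the test. DOCK1 (ENSG00000150760) runs along the plus strand of chromosome 10 from 128593978 to 129250781, and 5.29% of its exon bases overlap other genes, all on the opposite strand.

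Of the 17 genes of the DOCK, ELMO and Rac list, 14 were tested, and their median log2 fold change was 0.02 against -0.01 over all genes tested. Only DOCK6 among them, 7.14% of those tested against 13.1% of all genes, had an unadjusted p under 0.05, with 91.2 CPM in control and 105 CPM in siRBM3 cells (log2 fold change 0.21, adjusted p = 0.346, edgeR). ELMO2, the partner protein that DOCK1 needs for full activity, had 73.3 and 70.0 CPM, whereas ELMO1 was too low to be tested at 0.137 and 0.0985 CPM. DOCK5, the nearest relative of DOCK1, had 32.7 and 33.1 CPM. RAC1, the target GTPase, was not named by the fixed rule and is given for its place in the pathway, at 301 and 337 CPM with overlapping groups.

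RAPGEF1, the exchange factor that CRK and CRKL bring to Rap1, had 82.2, 91.6 and 85.2 CPM in the control libraries, against 87.4, 82.9 and 83.5 CPM in the siRBM3 libraries. The groups overlapped, from 82.2 to 91.6 CPM over all 6 libraries. The log2 fold change was -0.03 (95% interval -0.23 to 0.18, adjusted p = 0.923, edgeR). RAPGEF1 (ENSG00000107263) lies on chromosome 9, minus strand, from 134452157 to 134615463.

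Of the 19 genes of the Rap list, which holds the Rap GTPases with their regulators and effectors, 16 were tested. By an unadjusted p under 0.05, 1 stood higher and 2 stood lower in siRBM3 cells, 18.8% of those tested against 13.1% of all genes. RAP2A, a Rap GTPase, had 47.7 CPM in control and 34.6 CPM in siRBM3 cells (log2 fold change -0.46, unadjusted p = 0.00368, adjusted p = 0.175, edgeR). RAPGEF3, the exchange factor switched on by cyclic AMP, had 35.5 and 23.9 CPM (log2 fold change -0.57, adjusted p = 0.244). RAPGEF2 had 35.9 and 49.3 CPM with overlapping groups (log2 fold change 0.46, adjusted p = 0.328). The median over the 16 genes was -0.03.

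PTK2 (ENSG00000169398), which encodes FAK, had 230, 250 and 211 CPM in the control libraries, against 317, 264 and 271 CPM in the siRBM3 libraries. The siRBM3 libraries lay above the control libraries, with the highest value in the library that also had the largest mitochondrial share, and the part of that share in the value was not tested. The means were 230 ± 19.7 and 284 ± 28.7 CPM (SD, n = 3). Of the partners PTK2 had the largest difference, 0.31 on the log2 scale (95% interval 0.06 to 0.56), with an unadjusted p of 0.0224 and an adjusted p of 0.297 in edgeR, and it did not pass the test. Without siRBM3 replicate 3 the value was 0.22.

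Of the 13 genes of the FAK and paxillin list, all were tested, and the median was -0.05. At an unadjusted p under 0.05 in edgeR, 1 was higher and 2 were lower, 23.1% of those tested against 13.1% of all genes. RB1CC1, an autophagy protein that also binds and inhibits FAK, had 101 CPM in control and 126 CPM in siRBM3 cells (log2 fold change 0.31, unadjusted p = 0.0127, adjusted p = 0.250, edgeR). ARHGAP26, which binds FAK, had 35.5 and 28.8 CPM (log2 fold change -0.30, adjusted p = 0.340). PTK2B, the second kinase of the FAK family, was far lower than PTK2 at 11.5 and 10.0 CPM, and per kilobase of exon it stood at 1.47 against 16.7 CPM per kb in control cells. PTPN12, a phosphatase of the Cas scaffolds, had 140 and 146 CPM and overlapping groups.

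ABL1, the kinase that phosphorylates CRK and CRKL, had 224, 258 and 217 CPM in the control libraries, against 219, 216 and 203 CPM in the siRBM3 libraries. Its groups overlapped through siRBM3 replicate 3, and the log2 fold change was -0.13 (95% interval -0.35 to 0.09, adjusted p = 0.619, edgeR). SRC, the kinase that acts with FAK, had 120, 103 and 103 CPM in the control libraries, against 94.3, 107 and 102 CPM in the siRBM3 libraries. The SRC groups overlapped too, with a log2 fold change of -0.11 (95% interval -0.34 to 0.12, adjusted p = 0.697). ABL1 (ENSG00000097007) is on the plus strand of chromosome 9 from 133588430 to 133763062, and SRC (ENSG00000197122) on the plus strand of chromosome 20 from 35973088 to 36034453.

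Of the 17 genes of the SRC and ABL list, 13 were tested, and their median was 0.04. At an unadjusted p under 0.05 in edgeR, 1 was higher and 1 was lower, 15.4% of those tested against 13.1% of all genes. PTPN1, the phosphatase PTP1B, had 118 CPM in control and 155 CPM in siRBM3 cells with separate groups (log2 fold change 0.40, unadjusted p = 0.00401, adjusted p = 0.176, edgeR). LCK, the SRC-family kinase of T cells, had 25, 12 and 10 counts in control and 7, 3 and 5 counts in siRBM3 libraries, and its log2 fold change of -1.77 (adjusted p = 0.192) rested on these few counts. ABL2 had 47.7 and 49.0 CPM, and among the SRC relatives YES1 had 134 and 143 CPM, FYN 52.9 and 52.1 CPM and LYN 25.4 and 19.9 CPM. Per kilobase of exon YES1 stood at 26.3 CPM per kb in control cells, above SRC at 15.3, FYN at 7.14 and LYN at 4.12.

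Over the 9 partners, edgeR called 0 at a fold change of 1.5 and an adjusted p (Benjamini-Hochberg over all genes) under 0.01, where it called 0.0% of all genes tested. DESeq2 called 0 of the 9 at the same thresholds, where it called 1.27% of the genes with an adjusted p, and limma-voom also called 0. At an unadjusted p under 0.05 in edgeR there were 3 partners, PTK2, DOCK1 and PXN, against 13.1% of all genes tested. PTK2 and DOCK1 were higher, where 6.56% of all genes were, and PXN was lower, where 6.58% were. In the same genes the groups of libraries did not overlap, 2 above and 1 below, while 9.98% of all genes lay wholly above and 9.93% wholly below. The number of partners under an unadjusted p of 0.05 was 2 without control replicate 1 or without siRBM3 replicate 4, 1 without control replicate 3, control replicate 5 or siRBM3 replicate 5, and 0 without siRBM3 replicate 3.

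**Figure D2:**
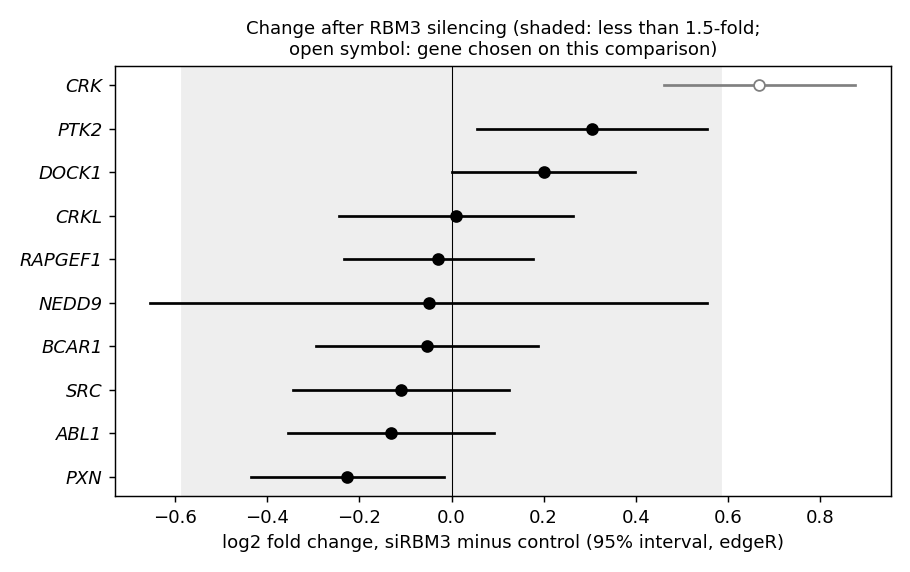
Difference between siRBM3 and control cells on the log2 scale (horizontal axis) with its 95% interval from edgeR for CRK (open symbol, chosen on this difference) and its 9 partners, ordered by value, with changes of less than 1.5-fold shaded. The interval of 8 partners lies inside the shaded band, and that of NEDD9 reaches beyond it on the lower side.

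For 8 of the 9 partners the 95% interval lay inside a 1.5-fold change in either direction, and for NEDD9 it reached from 0.635-fold to 1.47-fold. The median log2 fold change of the 9 partners was -0.05, with a range from -0.23 for PXN to 0.31 for PTK2.

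**Figure D3:**
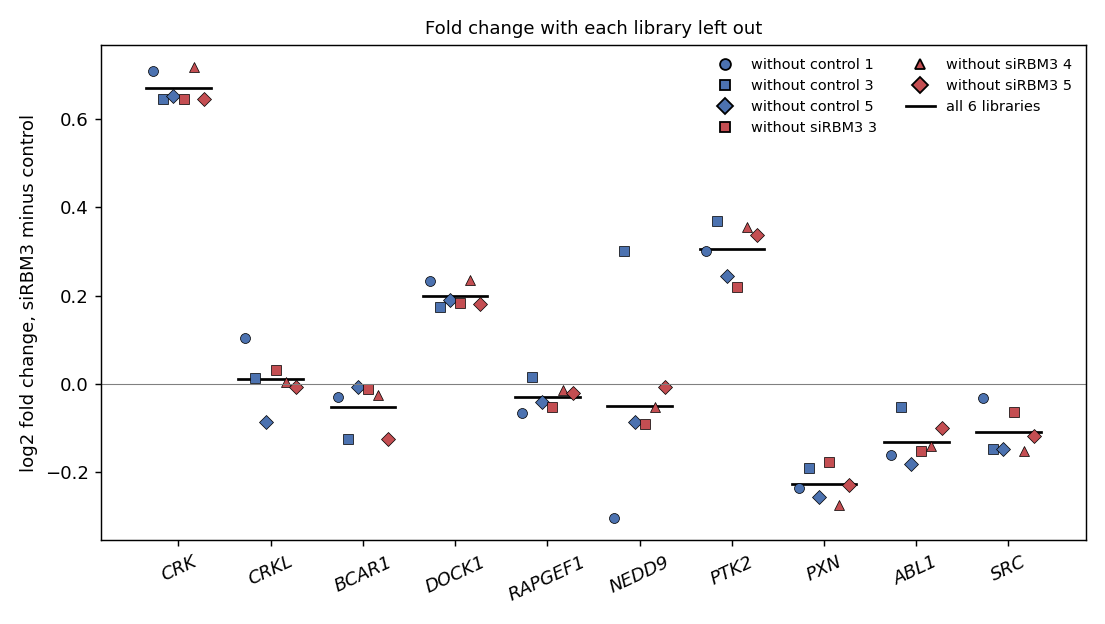
Log2 fold change of each gene (vertical axis) from all 6 libraries (black line) and after leaving out 1 library at a time (blue symbols for control, red for siRBM3 libraries, symbol shapes for the replicate number). DOCK1 and PTK2 stay above 0 and PXN, BCAR1, ABL1 and SRC below 0, while CRKL, RAPGEF1 and NEDD9 change sign with the library left out.

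Levels were compared between genes only per kilobase of annotated exon. In control cells the order from high to low was CRKL, ABL1, PXN, CRK, BCAR1, PTK2, SRC, DOCK1, RAPGEF1 and NEDD9. CRKL stood at 42.6 ± 5.62 CPM per kb and ABL1 at 33.3 ± 3.13 CPM per kb (SD, n = 3), with ranges that just overlapped. PXN at 26.1 ± 1.15 and CRK at 23.9 ± 1.16 CPM per kb overlapped as well, and so did each neighbour in the run BCAR1, PTK2, SRC and DOCK1, from 17.4 down to 14.8 CPM per kb. RAPGEF1 at 11.9 and NEDD9 at 3.29 CPM per kb were each separate from the gene above. All but NEDD9 were well expressed, with a level per length above that of 71.1% to 92.4% of the protein-coding genes tested, against 37.4% for NEDD9.

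In siRBM3 cells CRK stood second at 38.1 ± 2.16 CPM per kb, between CRKL at 42.9 ± 1.18 and ABL1 at 30.4 ± 1.24 CPM per kb (SD, n = 3), and it overlapped neither. Under scaling by library size only, or by the longest transcript, CRK and CRKL did overlap there. The higher place of CRK in siRBM3 cells carries the choice of the gene with it. The order depends on the length that is used. With the longest annotated transcript in place of all exons, PTK2 moved from the sixth place to the first at 44.8 CPM per kb in control cells, since its annotated exons add up to 13742 bases and its longest transcript to 5136, and CRK stood sixth at 25.3 CPM per kb. NEDD9 was the lowest and RAPGEF1 the next lowest under either length.

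**Figure D4:**
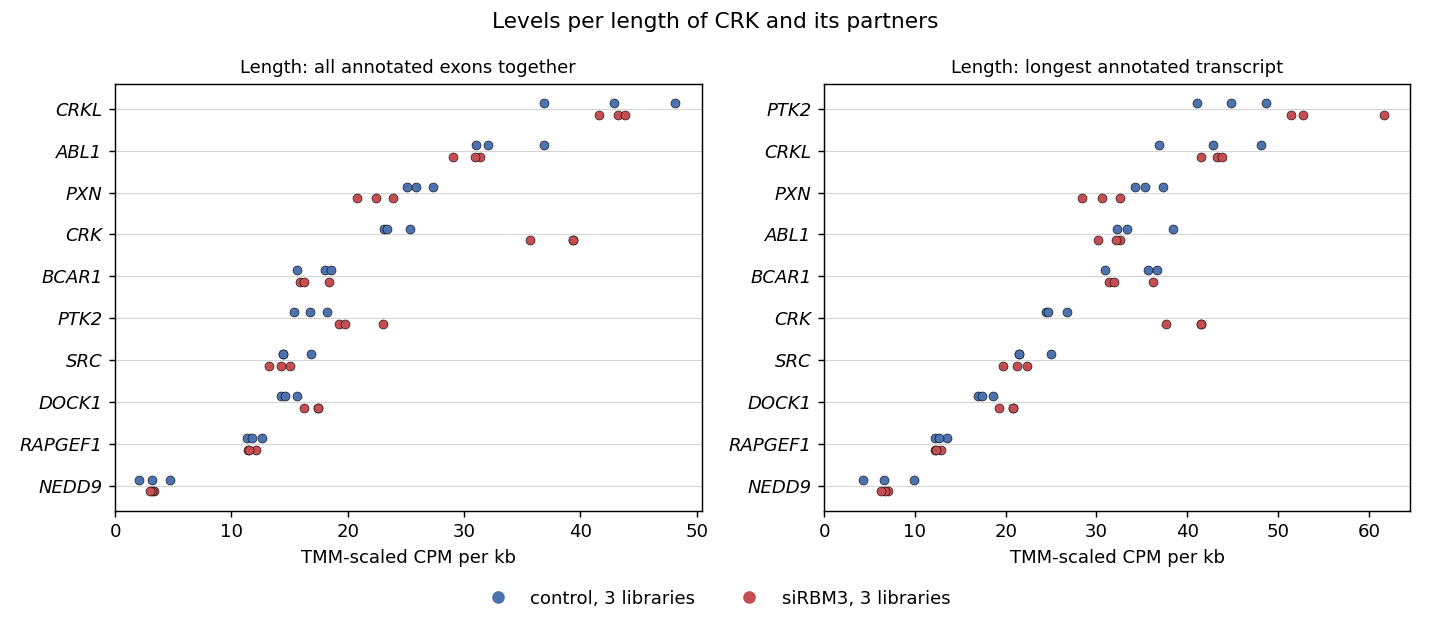
Level per kilobase (horizontal axis, TMM-scaled CPM per kb) of the 10 genes in each control (blue) and siRBM3 (red) library, with the length taken from all annotated exons (left) or from the longest transcript (right), ordered by the control mean. CRKL heads the left panel at 42.6 and PTK2 the right panel at 44.8 CPM per kb in control cells. The gap between the colours is widest for CRK, which was chosen on its difference between the groups.

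The wider pathway was read through the lists of 118 genes, of which 102 were tested. At an unadjusted p under 0.05 in edgeR there were 9 higher and 9 lower genes, 17.6% of those tested against 13.1% of all genes, and 0 passed a fold change of 1.5 with an adjusted p under 0.01 in edgeR, DESeq2 or limma-voom. The median over the 102 genes was 0.01. The list of other adaptors, with the exchange factors and ubiquitin ligases they carry, had the highest median, 0.17 over 13 genes. At an unadjusted p under 0.05 in edgeR, 6.56% of all genes tested were higher and 6.58% lower. In this list 3 genes were higher and 0 lower, 23.1% of those tested. These were CBL at 126 and 156 CPM (log2 fold change 0.31, adjusted p = 0.197), CBLB at 13.1 and 18.6 CPM (log2 fold change 0.51, adjusted p = 0.203) and SOS1 at 66.0 and 81.3 CPM (log2 fold change 0.30, adjusted p = 0.328). CBL and CBLB are ubiquitin ligases that bind CRK and CRKL, and SOS1 is a Ras exchange factor carried by adaptors. GRB2, the best known adaptor of this kind, had 96.0 and 96.9 CPM.

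The structural proteins of focal adhesions were mostly abundant, and 31 of 32 were tested with a median log2 fold change of -0.005. Of these, 2 stood higher and 3 lower by an unadjusted p under 0.05, 16.1% of those tested against 13.1% of all genes. ACTN4, an actin cross-linker, had 1250 CPM in control and 985 CPM in siRBM3 cells (log2 fold change -0.35, adjusted p = 0.187, edgeR). TNS4, a tensin without an actin-binding part, had 7.91 and 4.79 CPM (log2 fold change -0.72, adjusted p = 0.219), whereas TNS3, a full-length tensin, had 99.1 and 123 CPM (log2 fold change 0.31, adjusted p = 0.256). TRIP6, a LIM protein of the zyxin family, had 65.8 and 52.3 CPM (log2 fold change -0.33, adjusted p = 0.221).

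**Figure D5:**
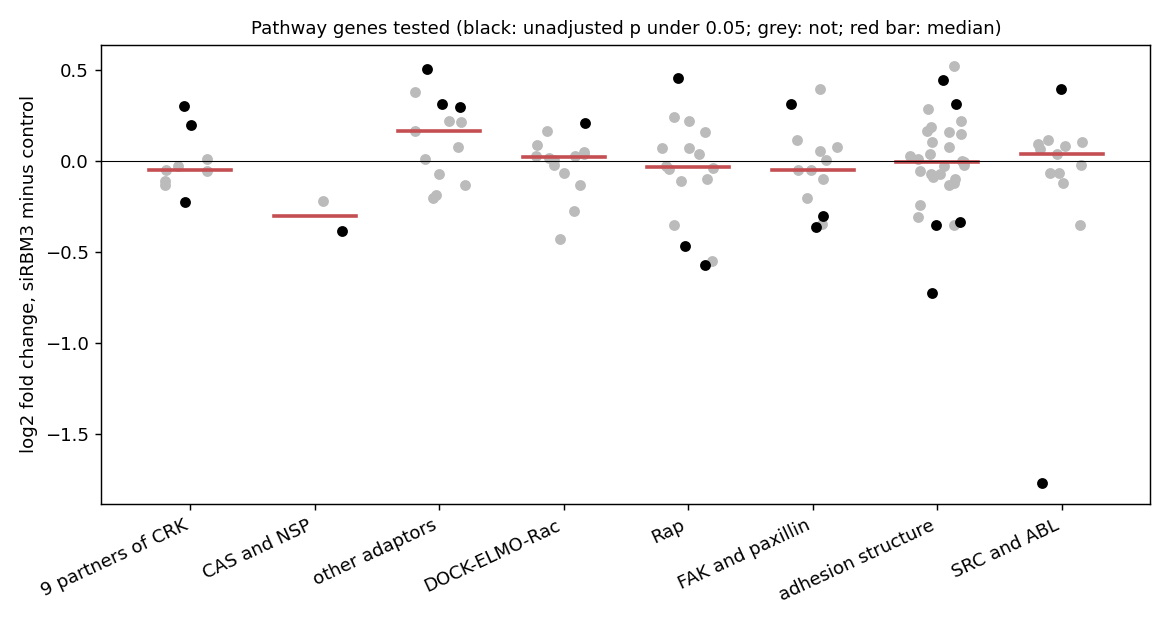
Log2 fold change between siRBM3 and control cells (vertical axis) of the 9 partners and of the genes tested in 7 pathway lists, with genes at an unadjusted p under 0.05 in black, other genes in grey and the median of each list as a red bar. The medians lie between -0.30, for a list with only 2 genes tested, and 0.17, and the lowest point is LCK at -1.77.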

How the data were processed

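The authors made polyA libraries with a stranded kit, trimmed the reads with BBDuk, aligned them to hg19/GRCh37 with STAR 2.5.2a, flagged duplicate reads by Picard and obtained gene counts by featureCounts (Subread). The deposited values are raw counts per Ensembl gene identifier, without normalization. The annotation release, the strand setting and the treatment of marked duplicates are not stated in the sources used. Symbols, places and exon lengths came from GENCODE on GRCh37, which matched 55665 of 63677 identifiers, and promoters from RefSeq.

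Genes were kept by filterByExpr (minimum count 10, minimum total 15). TMM factors scaled the counts, which were fitted by the quasi-likelihood method of edgeR 4.0.16 with robust dispersions across all genes tested, with Benjamini-Hochberg adjustment. Standard errors are the log2 fold change divided by the root of F, and intervals are 95%. The call thresholds are those of the study (fold change 1.5, FDR 0.01). DESeq2 1.42.0 (the tool of the study), limma-voom (limma 3.58.1), RLE factors, library size only, other filters, each library left out and the replicate number as a block were alternatives. R 4.3.3 and Python 3.11.15 were used, and the fits were tested on simulated data. Depth ranged from 23603992 to 45098612 counts, and intervals rest on 3 libraries a group. The exact permutation test of 3 against 3 samples cannot go below p = 0.1. No libraries of a group were near identical (chi-square per degree of freedom 27.7 to 141).

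The members and lists were chosen with earlier results of these data known. Named were the 10 members, RBM3, up to 4 genes per list with the smallest p under 0.05, fixed relatives of the members, the neighbours of CRK within 100 kb and the 5 genes nearest to CRK in pattern. RAC1, GRB2, SH2D3A, CASS4, ELMO1 and PXN-AS1 were named outside this rule.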

Additional observations from a re-analysis of the deposited data

How the results depend on the processing

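DOCK1, PTK2, PXN, ABL1 and SRC kept their direction under every alternative run. CRK did so too, which is only a description because CRK was chosen on this difference. CRK lay between 0.62 and 0.76 on the log2 scale, with its highest value, 0.76, under the replicate number as a block, and between 0.64 and 0.72 with each library left out. Signs turned for CRKL, BCAR1, RAPGEF1 and NEDD9, whose values in the main fit were near 0, and the cause was not tested. CRKL was -0.04 with library size only, -0.086 without control replicate 5 and -0.01 without siRBM3 replicate 5, within -0.086 to 0.104 over the libraries left out. BCAR1 was 0.001 under the block. RAPGEF1 was 0.016 without control replicate 3, within -0.065 to 0.016. NEDD9 was 0.045 with limma-voom and 0.30 without control replicate 3, within -0.303 to 0.30, and under the block it was -0.28 with an unadjusted p of 0.0461 and an adjusted p of 0.192 in edgeR. The number of partners called was 0 under every alternative run, and so was that of pathway genes. Partners under an unadjusted p of 0.05 numbered 1 with DESeq2, 1 without a filter on low counts, 4 under the block and 0 to 2 with a library left out. Pathway genes under it numbered 29 under the block and 13 to 20 with a library left out. Over all genes, 160 were called by DESeq2, 279 without a filter and 336 under the block, and 0 to 1 with a library left out. RBM3 passed with DESeq2 (-2.14), without a filter (-2.13) and under the block (-2.57), and lay between -2.40 and -1.96 with a library left out. CRK in control cells stood at 25.3 CPM per kb by the longest transcript and at 23.3 to 24.3 with a control library left out. Only the numbers 3 and 5 occur in both groups. Control replicate 1 and siRBM3 replicate 4 stand alone under their numbers. The differences, p-values and counts under the block therefore rested on the pairs numbered 3 and 5 alone. The deviations of these pairs correlated at 0.528 and 0.0884 across genes, against -0.364 to 0.201 for pairs with unlike numbers. The pair of replicate 3 was thus the highest, and whether its libraries share a batch was not tested. The main fit took the samples to share only a number. In the main edgeR fit, with 3 libraries a group, RBM3 itself missed the adjusted threshold.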
